A study of Arabidopsis thaliana with 14 samples.

Results

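Rosettes that had been in the dark for 4 h beyond their normal night were compared with rosettes taken at the end of that night, on every non-control probe set of the ATH1 array. The comparison used 5 of the 14 arrays of the series, 2 at 4 h of extended night (replicates A and B) and 3 from the night's end (replicates A, B and C). Of 22810 probe sets, 64 are Affymetrix controls, and the other 22746 were tested. All groups were Columbia-0 plants aged 5 to 6 weeks. They had spent the last 11 days in a 14 h photoperiod and were harvested in the vegetative state, as pools of 3 whole rosettes per sample frozen in darkness. About 10 µg of Trizol-extracted RNA was labelled per array. The remaining arrays covered 2 h before that point, and 2 h, 6 h, 8 h, 24 h and 48 h of extended night. The series has no light control at the same hour, so the effect of darkness and that of the time of day cannot be told apart. The values are log2 RMA signals, on which a difference of 1 is a 2-fold difference.

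An Arabidopsis leaf stores starch in the light and breaks it down through the night at a rate that leaves little by dawn. When the night is prolonged, the plant runs short of sugar, and the low-energy kinase SnRK1 and its partner bZIP transcription factors are known to switch on catabolic genes while growth is restrained. Leaves can then respire amino acids and lipids, and the electrons from branched-chain amino acids can enter the mitochondrial chain through the electron-transfer flavoprotein and its ubiquinone oxidoreductase.

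A gene was named where a probe set lists exactly 1 gene, which gave 13355 genes, of which 1535 carry a symbol beyond the locus. A further 503 probe sets list several genes, and 8730 list none in the annotation used. Marker genes of the tissue were thinly covered. Rubisco activase (RCA), a mesophyll marker, read 13.86 at the end of the night and differed by −0.08. The guard cell lineage gene FMA (FAMA) read 8.28 and differed by −0.09, and the root hair expansin EXPA7 read 6.09 and differed by 0.05. The phloem exporter SWEET11 fell by 0.63. No marker listed for epidermis, flower, seed or late senescence was measured by a single-gene probe set, so their part in the results was not tested. In whole rosettes, fewer cells of a type and less RNA per cell cannot be told apart. Arrays of the same group correlated at 0.988 to 0.993 and arrays of different groups at 0.957 to 0.968, and the median of all differences was −0.02. P-values and standard errors rest on the spread between replicates pooled over every time point with more than 1 array. Disagreement between replicates at later times therefore enters them too. The labels do not say that the samples came from separate growth experiments.

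After 4 h, 1703 probe sets had risen and 1997 had fallen at a Benjamini-Hochberg adjusted p under 0.05 in limma, which is 7.49% and 8.78% of those tested. With the replicate letter as a block the counts were 2722 and 3238. Among genes with 1 probe set each, 907 of 13355 rose (6.79%) and 1027 fell (7.69%), or 1400 and 1682 with the block. These shares are the background of every group count below, and no group was tested against them. Genes called at least 4-fold higher made up 0.592% and at least 4-fold lower 0.18%, and those called at least 2-fold higher or lower 2.49% and 2.24%. Falls outnumbered rises, but the large changes ran the other way. At least 4-fold rises numbered 181 probe sets (0.796%) and at least 4-fold falls 54 (0.237%). At least 2-fold changes numbered 695 (3.06%) and 603 (2.65%). Arrays of the groups did not overlap at 10256 probe sets (45.1%), so a lack of overlap by itself marks a large share of the array. Of the genes, 5684 (42.6%) had no overlap.

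The calls were spread unevenly over signal strength. Probe sets were ranked by mean signal and divided into 4 bins of 5686 or 5687. In the dimmest bin 0.369% rose and 0.879% fell. In the next bin 2.59% rose and 7.51% fell, in the one above it 10.1% and 14.3%, and in the brightest bin 16.9% rose and 12.4% fell. Dim probe sets gave few calls in either direction, and the brightest bin was the one where rises were the more frequent. None of 69 genes placed on the plastid chromosome was called in limma (1 at an unadjusted p under 0.05), and 5 of 923 pseudogenes rose and 2 fell. Nuclear chromosomes did not stand apart, with 5.58% to 7.39% of genes higher and 6.64% to 8.69% lower. Of 8730 probe sets with no listed gene, 752 were called higher and 938 lower, and 6 of them rose by more than any named gene, by 4.83 to 5.90.

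**Figure D1:**
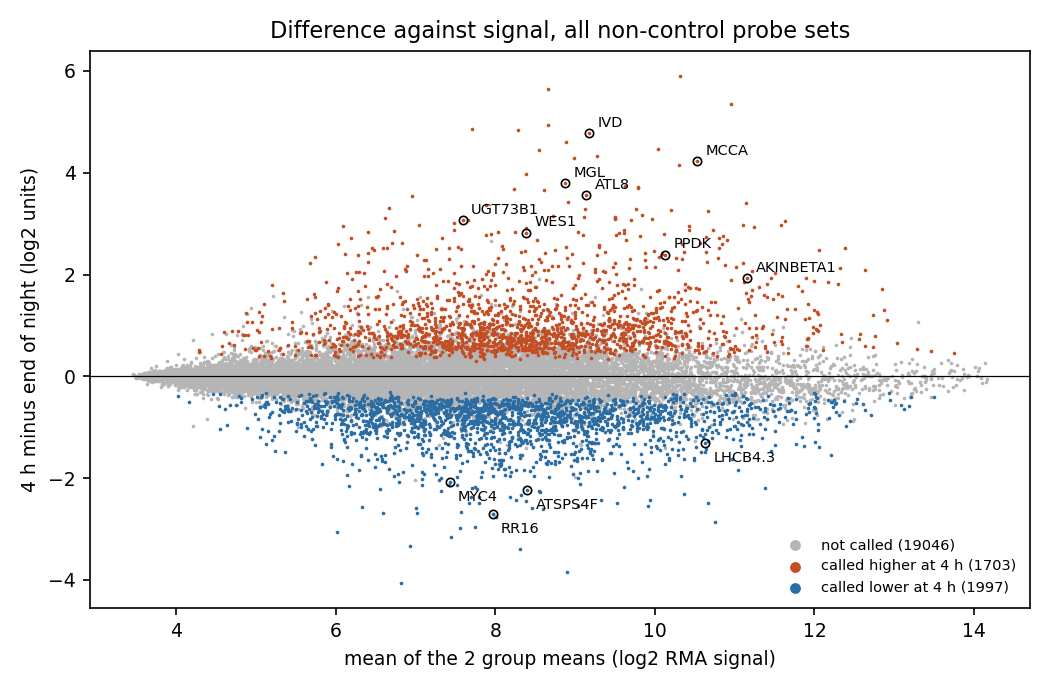
Log2 difference (4 h of extended night minus end of night) against mean log2 signal for 22746 probe sets, 1 point each, with called probe sets coloured by direction and named genes labelled. The largest rises, up to 5.90 for a probe set that lists no gene and 4.78 for IVD, exceed the largest fall (AT3G15310 at −4.05), and few points at the dim end are called.

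Most of the measured enzymes of amino acid breakdown rose. Of the 17 measured members of that list, 11 rose and 0 fell (1 fell with the letter block), with a median difference of 0.94 where the median of all genes was near 0. IVD, the isovaleryl-CoA dehydrogenase of leucine breakdown, read 6.94, 7.1 and 6.32 at the end of the night and 11.69 and 11.43 at 4 h. Both 4 h arrays stood far above all end of night arrays, a difference of 4.78 ± 0.28 (limma standard error) or 27.4-fold (adjusted p = 1.1e-05). The biotin-carrying subunit of methylcrotonyl-CoA carboxylase, MCCA, rose from 8.42 ± 0.17 (SD, n = 3) to 12.65 ± 0.33 (n = 2), 18.8-fold, and its partner subunit MCCB rose 5.30-fold. MGL, methionine gamma-lyase, rose 13.8-fold, from 7.18, 7.36 and 6.40 to 10.96 and 10.58. ETFQO, which passes the electrons to ubiquinone, rose by 2.88, and ETFBETA, a subunit of the flavoprotein that feeds it, by 0.76. ETFALPHA, the other subunit, differed by 0.64 and was called only with the letter block. DELTA-OAT, ornithine aminotransferase, rose by 0.94. The rises within 1 pathway therefore ran from less than 2-fold to more than 16-fold, and differences between members were not tested here or in any family below. AT5G38710 (1.68) was not called when any of the 5 arrays was left out (1.51 to 1.84), nor AT4G20930 (0.83) without 4 h B.

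Among aldehyde dehydrogenases 2 of 8 measured genes rose. ALDH6B2, methylmalonate-semialdehyde dehydrogenase of valine breakdown, read 9.70, 9.40 and 9.53 and then 12.17 and 11.95, a rise of 2.52 ± 0.14. ALDH7B4, a stress-responsive member that detoxifies aldehydes, read 8.71, 8.32 and 8.24 and then 11.62 and 11.39, a rise of 3.08 ± 0.15 (8.47-fold, adjusted p = 4.1e-06). The other 6 members lay between −0.58 (ALDH3F1) and 0.46 (ALDH11A3). ALDH3F1 fell when the letter was a block (1 gene). FDH, the mitochondrial formate dehydrogenase, rose by 1.52 ± 0.27, although it was singled out after its values were seen.

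The core pathways of respiration gave few calls. The lists held 10 measured genes for the tricarboxylic acid cycle and pyruvate dehydrogenase, 5 for alternative respiration and 4 for glycolysis. None of these listed genes was called in limma, with differences from −0.37 to 0.30. At an unadjusted p under 0.05 the counts were 0, 0 and 1, and with the letter block 1, 0 and 0. Single genes outside these lists were called. IDH-VI, an isocitrate dehydrogenase subunit and so a cycle gene that the list lacks, read 8.78, 8.80 and 8.37 and then 7.39 and 7.63. It fell by 1.14 ± 0.17 on the log2 scale, while IDH-III, IDH-IV and IDH-V lay between −0.07 and 0.03. Among 9 isocitrate and succinate dehydrogenase genes it was the 1 called. CYTC-2, a cytochrome c, fell by 1.49 ± 0.28, from 9.43, 9.23 and 9.78 to 8.13 and 7.85, and CYTC-1 differed by −0.18. The CYTC-2 call did not hold without 4 h B, where the difference was −1.35. ACLA-3 encodes a subunit of ATP-citrate lyase, the cytosolic enzyme that makes acetyl-CoA from citrate. It read 9.57, 9.39 and 9.20 and then 10.94 and 10.77, a rise of 1.47 ± 0.15, while ACLA-1, ACLA-2 and ACLB-1 differed by −0.28, −0.22 and −0.08.

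**Figure D2:**
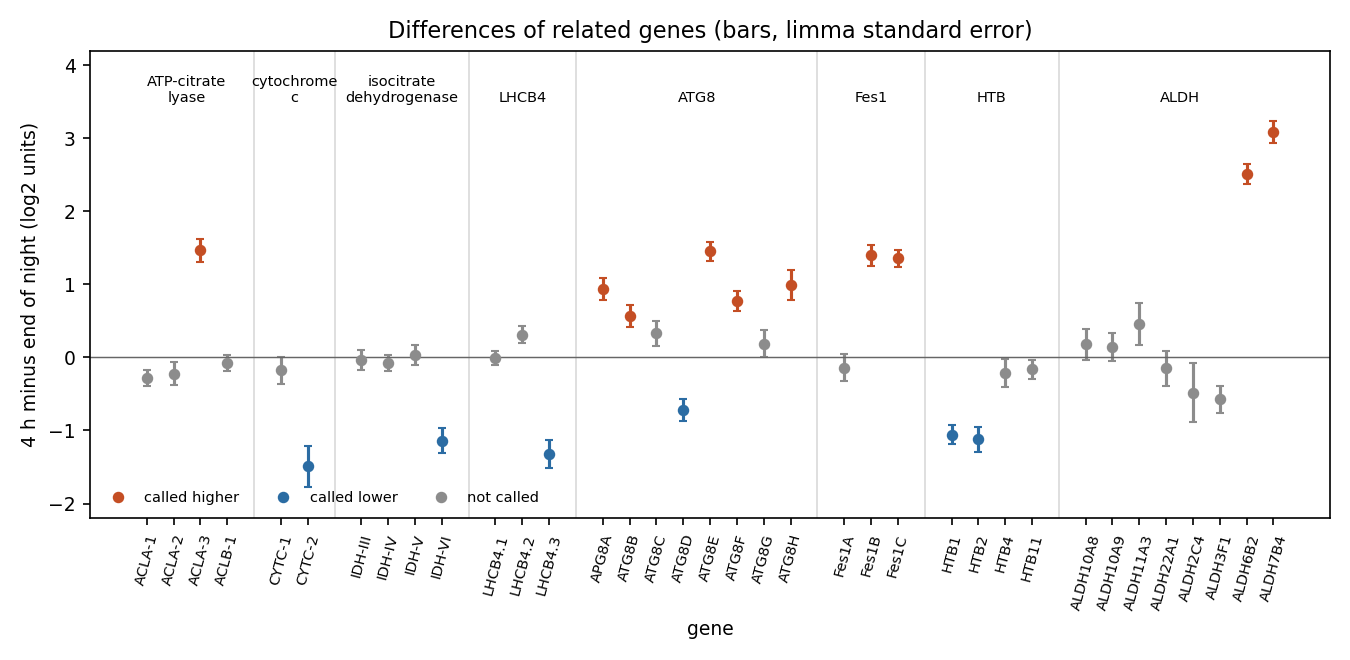
Log2 difference (4 h minus end of night) for members of 8 small groups of related genes, with bars showing the limma standard error and colour showing the call. In the groups drawn, called and uncalled members stand side by side, for example ACLA-3 at 1.47 and ACLA-1 at −0.28.

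Genes for using lipid and recycling carbon showed a few large rises. SDP1, the lipase that starts oil breakdown in seedlings, read 7.71, 7.43 and 7.38 at the end of the night and 10.27 and 9.71 at 4 h, a rise of 2.48 ± 0.22. SDP1-LIKE differed by −0.05 and AIM1, a peroxisomal beta-oxidation enzyme, by 0.39, called higher only with the letter block (0.37). PPDK, pyruvate orthophosphate dikinase, which can return pyruvate toward sugar, read 8.60, 9.33 and 8.86 and then 11.47 and 11.17, 5.25-fold higher (adjusted p = 0.00012). ICL, isocitrate lyase of the glyoxylate cycle, differed by 0.20 and was not called. On the synthesis side, calls went both ways. In a group of 7 genes of phosphatidylcholine and methyl transfer 3 fell and 2 rose, with a median of −0.09. With the letter block 3 fell and 3 rose, and without end of night B 3 fell and 1 rose. PMEAMT, which methylates phosphoethanolamine on the way to phosphatidylcholine, fell from 11.21, 11.26 and 11.30 to 10.37 and 10.37 (−0.89 ± 0.09). AAPT2, an aminoalcoholphosphotransferase of the same route, fell by 1.0 on the log2 scale. Of 6 genes of purine and ureide breakdown, AAH, allantoate amidohydrolase, was the 1 that rose (0.57), and it was not called without 4 h B (0.45). With the block 1 of the 6 also fell.

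Sugar-sensing genes and sugar metabolism changed in single members. AKINBETA1, a beta subunit of SnRK1, read 10.23, 10.07 and 10.27 and then 12.24 and 12.00, a rise of 1.93 ± 0.20 (3.81-fold, adjusted p = 0.00027). BZIP53, an S1-group bZIP factor that works downstream of SnRK1, read 9.65, 9.70 and 9.47 and then 10.65 and 10.59, a rise of 1.01 ± 0.14, and bZIP44 of the same group differed by −0.14. RAPTOR1 and RAPTOR2, partners of the growth-promoting TOR kinase, differed by 0.65 and −0.23 and were not called. PWD, phosphoglucan water dikinase, which opens the starch granule for degradation, read 9.44, 9.25 and 9.32 and then 8.02 and 7.98, 2.52-fold lower (adjusted p = 4.5e-05). ATSPS4F, a sucrose-phosphate synthase, read 9.24, 9.77 and 9.55 and then 7.48 and 7.08, 4.70-fold lower. The starch-synthesis genes APL3, APL4 and SBE2.2 lay at −0.54, −0.02 and −0.43 with 0 of 3 called (1 at an unadjusted p under 0.05), or 2 lower with the letter block. Of 3 genes for starch degradation 1 fell (2 with the block), and of 3 for sucrose synthesis and cleavage 1 fell (2 with the block, 2 without 4 h A). Of 14 measured sugar transporters 2 fell, SWEET11 (−0.63) and SWEET13 (−0.48), where 7.69% of all genes were lower. With the block 4 fell, with TMT2 and SWEET17 added, and 1 rose, SWEET16 (0.58, or 0.43 and uncalled without the block). SWEET13 was also lost with centring, with a second quantile normalization and in a fit of the 5 arrays alone. Neither was called without end of night A, end of night C, 4 h A or 4 h B, and SWEET11 was not called without end of night B either (−0.78 to −0.48 over the 5 arrays left out).

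Among the largest rises of genes with a symbol were those of ATL8, a RING-type ubiquitin ligase, SIS and CCL. ATL8 read 7.51, 7.06 and 7.50 and then 11.12 and 10.72, 11.8-fold higher. CCL, a CCR-like gene under clock control, read 9.72, 9.35 and 9.26 and then 12.71 and 12.97, 10.5-fold higher. SIS, a salt-induced serine-rich protein, rose by 3.29. Genes named among the 15 largest rises or falls were chosen from those whose groups did not overlap, so the lack of overlap adds no support to their calls.

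**Figure D3:**
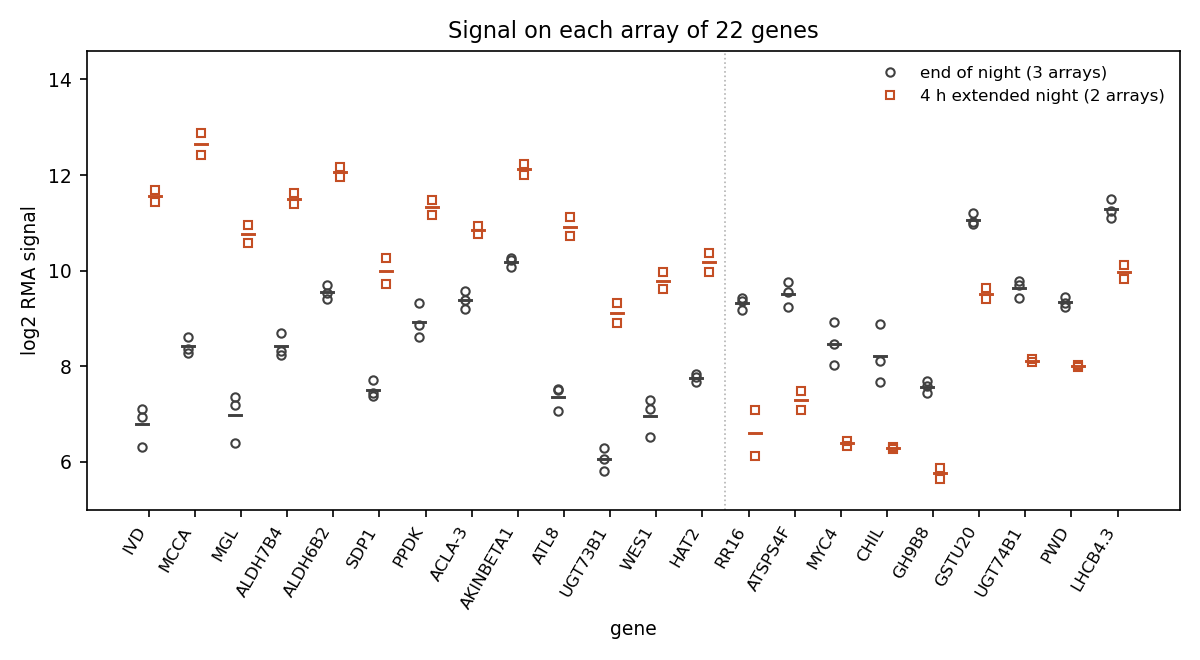
Log2 RMA signal of 22 named genes on each of the 5 arrays, with circles for the 3 end of night arrays, squares for the 2 arrays at 4 h of extended night, and short lines for group means. The dotted line parts rises from falls. Markers at 4 h lie higher for genes such as IVD (6.94, 7.1 and 6.32 against 11.69 and 11.43) and lower for genes such as RR16, and a lack of overlap was a condition for naming the 15 largest rises and falls.

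Some genes of self-digestion and of protein quality control were higher. In autophagy, which delivers cytoplasm to the vacuole, 9 of 17 measured genes rose and 1 fell, with a median of 0.52. That count was 5 without 4 h A and 3 without 4 h B. ATG8 proteins coat the growing autophagosome. ATG8E read 9.80, 10.15 and 10.14 and then 11.47 and 11.49, a rise of 1.45 ± 0.13, and APG8A rose by 0.94. ATG8H rose by 0.99 and ATG8F by 0.78, neither of them called without 4 h B (0.85 and 0.69). ATG8D went the other way, from 8.27, 8.31 and 8.50 to 7.69 and 7.59 (−0.72), a call lost without 4 h A (−0.77) and without 4 h B (−0.67). ATG3, the enzyme that attaches the lipid to ATG8, rose by 0.56 and was called with both 4 h arrays, but not without 4 h A (0.57) or 4 h B (0.54). ATG8C and ATG8G differed by 0.33 and 0.19.

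The endosomal sorting machinery (ESCRT), which packs membrane proteins into vesicles bound for the vacuole, had 3 of 12 genes higher and 0 lower (1 with the block), with a median of 0.18. ELC, an ESCRT-I subunit that binds ubiquitin, read 8.15, 8.11 and 8.01 and then 9.40 and 9.42, a rise of 1.33 ± 0.13. VPS2.1 rose by 0.76, and VPS60.1 by 1.08, the latter not called without end of night A, end of night C, 4 h A or 4 h B (0.91 to 1.32). Of 7 exocyst genes, which tether vesicles for secretion, 0 were called in limma (3 at an unadjusted p under 0.05), and 1 rose with the block. In the endoplasmic reticulum quality control group 4 of 15 rose and 1 fell, or 7 and 2 with the block, and the rises numbered 2 without 4 h A and 1 without 4 h B. DER2.1, a Derlin for exporting misfolded proteins, read 9.34, 9.28 and 9.62 and then 10.57 and 10.55, a rise of 1.15. BZIP28, a stress sensor of that compartment, rose by 0.64 (0.49 and not called without 4 h B). UBC32, a ubiquitin-conjugating enzyme of the pathway, rose by 0.81 but was not called without 4 h A (0.74) or 4 h B (0.89), while UBC16 of the same enzyme class rose by 0.93. ATERDJ3B, a luminal co-chaperone, was the 1 that fell (−0.54), a call lost without end of night A or B or either 4 h array, and in a fit of the 5 arrays alone.

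Of 8 Hsp70 exchange factors and co-chaperones 3 rose. Fes1B read 7.03, 6.94 and 6.92 and then 8.20 and 8.52, a rise of 1.4, and Fes1C read 8.22, 8.19 and 8.16 and then 9.44 and 9.65, a rise of 1.36, while Fes1A differed by −0.14. SGT1A, a co-chaperone of HSP90 in immune receptor stability, rose by 1.09. None of 6 measured proteasome subunits was called in limma (−0.31 to 0.27), 1 had an unadjusted p under 0.05, and 1 fell with the block. Of 10 vacuolar and cysteine proteases 0 rose and 2 fell, also with the block, with a median of 0.08. Neither fall was called without end of night A or without end of night B.

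Among genes of the thylakoid, many assembly factors fell and most of the measured structural proteins were not called. Of 8 measured genes of the photosystems and electron transport 0 rose and 1 fell (1 and 2 with the block), with a median of −0.01. The 1 that fell was LHCB4.3, a minor antenna protein of photosystem II. It read 11.11, 11.25 and 11.50 and then 9.82 and 10.11, a fall of 1.32 ± 0.19 on the log2 scale (2.49-fold, adjusted p = 0.0018), with LHCB4.1 and LHCB4.2 at −0.01 and 0.31. LHCB4.2 was called higher only with the block (0.28). Among photosystem and thylakoid assembly factors 8 of 18 fell and 0 rose, with a median of −0.54, against 7.69% of all genes lower. As in every list and role group, members were chosen with earlier results of these data known. Setting the share beside that of all genes is therefore no test. LPA66, an RNA-editing factor needed for photosystem II, read 7.25, 7.31 and 7.31 and then 6.39 and 6.41 (−0.89 ± 0.10). ATAB2, which activates translation of photosystem proteins, fell by 0.78. The falls of LPA19 (−0.85), HCF101 (−0.78, an iron-sulphur cluster carrier for photosystem I), LIL3:1 (−0.93, a light-harvesting-like protein), CaS (−0.75, a thylakoid calcium-binding protein), TAAC (−0.79, a thylakoid nucleotide carrier) and CCB3 (−0.72, for cytochrome b6 assembly) each rested on the full set of arrays. LPA19 and HCF101 were not called without 4 h A (−0.77 and −0.73), nor LIL3:1 and CCB3 without 4 h B (−0.70 and −0.54), nor CaS without 4 h A (−0.58) or end of night B (−0.67). TAAC was not called without end of night C, 4 h A or 4 h B (−0.73, −0.77 and −0.81), and CCB3 also not without end of night A or C (−0.72 and −0.68). The count was 4 without 4 h A and 5 without 4 h B.

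The nuclear genes of the chloroplast NDH complex, which returns electrons from ferredoxin to plastoquinone around photosystem I, fell in 5 of 9 cases, with a median of −0.70, and in 8 of 9 with the block. NdhN, a subunit, read 10.41, 10.70 and 10.83 and then 9.24 and 9.28 (−1.39 ± 0.17). CRR42, an assembly factor, read 8.40, 8.63 and 8.84 and then 7.03 and 7.24 (−1.49 ± 0.17), and CRR41 fell by 0.89 on the same scale. NdhL (−0.70) was not called without 4 h A (−0.76) or 4 h B (−0.64), nor CRR21 (−0.95), which edits ndhD RNA, without 4 h A (−0.92) or 4 h B (−0.98), and the count was then 3. PIFI lay at −0.59, called lower only with the block (−0.56), and NdhS at 0.12. The plastid's own genes gave no calls. Of 43 plastid-encoded photosynthesis genes 0 were called in limma (median 0.08, 1 at an unadjusted p under 0.05), and of 20 plastid-encoded genes for transcription and translation 0 (median 0.21, 0 at an unadjusted p under 0.05). Neither set gave a call with the block.

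Some other plastid and redox genes fell as well. In a group of redox proteins, not all of them plastid proteins, 5 of 15 fell, with a median of −0.52. The count was 3 without end of night B and 2 without end of night C. Calls were also lost without 4 h A, and most of all without 4 h B. MSRB5, a methionine sulfoxide reductase, read 10.10, 9.93 and 9.56 and then 8.75 and 8.16 (−1.41), and this call held when each array was left out. NTRC, the NADPH-dependent thioredoxin reductase of the chloroplast, read 10.54, 10.67 and 10.55 and then 9.88 and 9.65 (−0.82), a call lost whichever of the 5 arrays was left out (−0.94 to −0.71). The thioredoxin ty2 fell by 1.1 on the log2 scale (−0.95 without end of night C and −0.86 without 4 h B, neither called), and GR1, a glutathione reductase, by 0.71 (−0.55 without 4 h B, not called). FTSZ2-2 of the plastid division ring fell by 1.27, with FTSZ2-1 at −0.61 and lower with the block. MAP1C and MAP1D, organellar methionine aminopeptidases that trim new proteins, fell by 1.32 and 1.06, and 4 of the 6 genes of that group fell with the block. In tetrapyrrole synthesis 2 of 10 fell, CHLI2 of magnesium chelatase (−0.56) and GSA1, which makes aminolevulinate (−0.69, or −0.49 and not called without 4 h B). The Calvin cycle and photorespiration lists had 2 of 5 and 3 of 7 genes lower, and 1 of these calls held with each array left out, that of the plastid glycolate and glycerate transporter LrgB, which read 12.11, 11.99 and 12.01 and then 10.94 and 11.00. The other 4, AT1G56190, SBPASE, AT1G11860 and AT1G32470, differed by −0.83, −0.44, −0.49 and −0.46 and were not called without end of night B, 4 h A or 4 h B. SBPASE was also lost with centring, without dim probe sets, with trend and robust variance and without the 48 h arrays, and AT1G32470 in a fit of the 5 arrays alone.

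**Figure D4:**
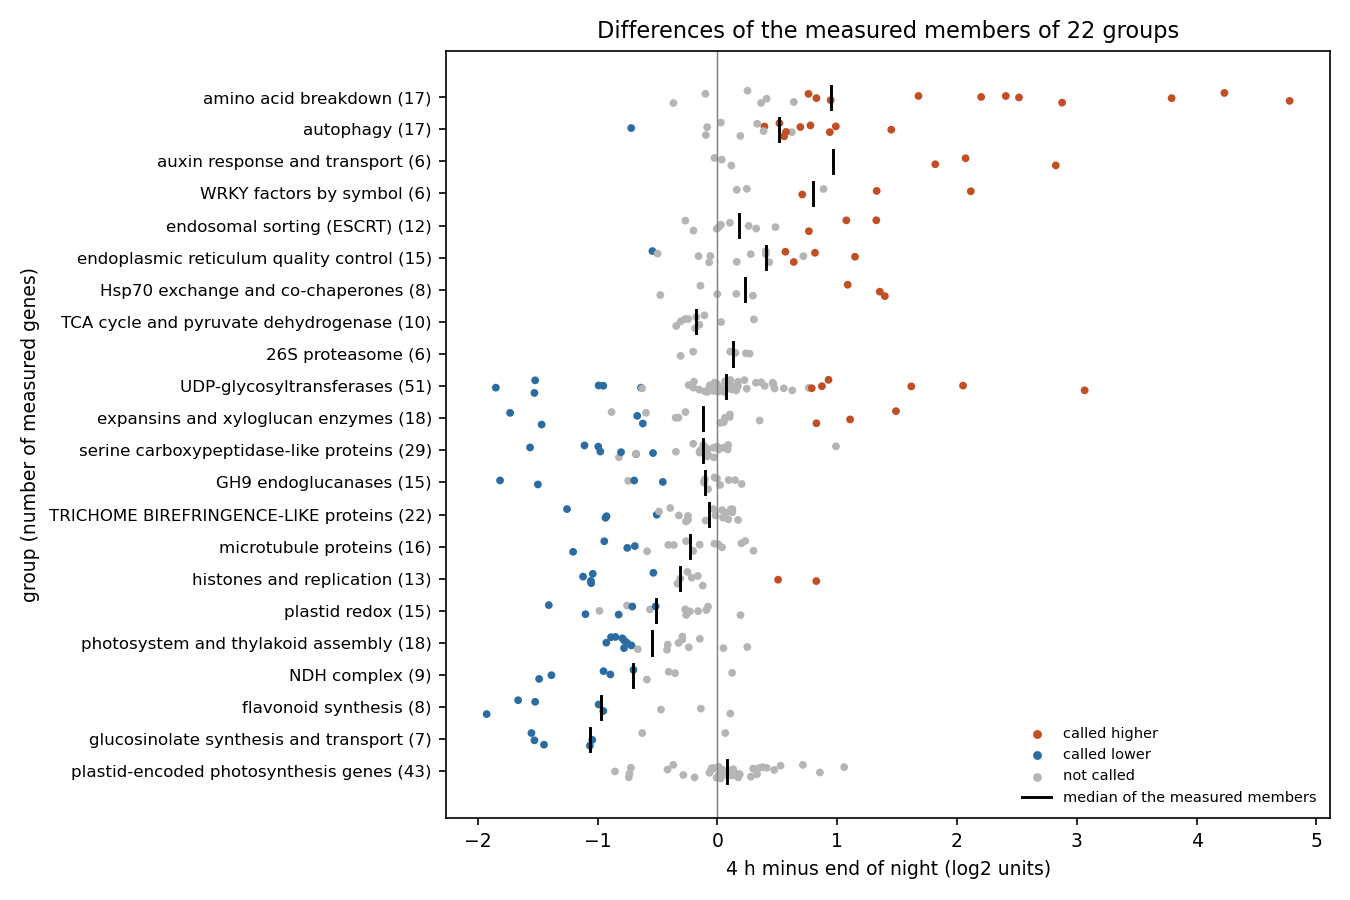
Log2 difference (4 h minus end of night) of every measured member of 22 gene groups, 1 point per gene, coloured by call, with the group median marked. Amino acid breakdown (median 0.94) and glucosinolate synthesis and transport (median −1.06) lie far apart, and most groups in between straddle 0. The plastid redox row also holds proteins outside the plastid, and the WRKY row leaves out ZAP1.

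Genes for defence compounds were mostly lower. Glucosinolates are sulphur-rich defence compounds of the cabbage family, and 5 of 7 measured genes for making and moving them fell while 0 rose, with a median of −1.06. UGT74B1 adds the glucose to the glucosinolate core. It read 9.71, 9.78 and 9.44 and then 8.08 and 8.14, a fall of 1.53 ± 0.13 on the log2 scale (2.88-fold, adjusted p = 9.2e-05). GSTU20, a glutathione transferase tied to the same pathway, read 11.01, 10.98 and 11.21 and then 9.63 and 9.40 (−1.55 ± 0.23). GTR1, a glucosinolate importer, fell by 1.45, and its paralogue GTR2 lay at −0.63, called lower only with the block (−0.80). AOP1, of the family that modifies the side chain, fell by 1.07, and AOP3 lay at 0.07. BCAT4, which starts side-chain elongation from methionine, was lower by 1.05 and was not called when any of the 5 arrays was left out (−1.27 to −0.82) or without the 48 h arrays. MYC4, a bHLH factor that drives both jasmonate responses and glucosinolate genes, read 8.92, 8.02 and 8.47 and then 6.34 and 6.43, 4.24-fold lower (adjusted p = 0.00032), with MYC3 at 0.48 uncalled. Sulfate assimilation, which supplies the sulphur, had 3 of 4 genes lower. Without end of night A, end of night B, 4 h A or 4 h B the count was 1, since APS3 (−0.46) and SIR (−0.45) then lost their calls. Both were also lost without dim probe sets and with trend and robust variance, and SIR with centring and without the 48 h arrays.

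Flavonoid synthesis had 5 of 8 genes lower and 0 higher, with a median of −0.97. CHIL, a chalcone isomerase-like protein that assists the pathway, read 8.11, 7.66 and 8.89 and then 6.27 and 6.32, 3.80-fold lower despite the wide spread at the end of the night. UGT78D1, which attaches a sugar to flavonols, read 9.32, 9.43 and 9.21 and then 7.75 and 7.84 (−1.52 ± 0.20). UF3GT, an anthocyanin glycosyltransferase, fell by 0.99. DFR, which commits the pathway to anthocyanins, read 8.81, 8.20 and 8.41 and then 7.47 and 6.14. Its 4 h arrays differed by more than its end of night arrays, and the fall of 1.66 was −1.0 and not called without 4 h B. UGT78D2 fell by 0.95 and was not called without 4 h A (−0.98) or 4 h B (−0.93). The count was 3 without 4 h B.

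The large enzyme families held called members among many that were not called. Of all genes, 6.79% rose and 7.69% fell, and some of these families lay near those shares. Of 51 UDP-glycosyltransferases 6 rose and 6 fell, with a median of 0.07. UGT73B1 read 6.29, 5.81 and 6.07 and then 9.33 and 8.91, 8.37-fold higher. UGT72E1, which glucosylates lignin precursors, rose by 2.05 and UGT87A2 by 1.62. GT72B1, known for conjugating xenobiotic phenols, fell from 9.41, 9.02 and 9.13 to 7.50 and 7.17 (−1.85). Of 29 serine carboxypeptidase-like proteins 7 fell and 0 rose, led by scpl46 (9.57, 9.61 and 9.54, then 7.96 and 8.06, −1.56 ± 0.11) and scpl35 (−1.11). The median of that family was −0.12, and the count was 2 without 4 h A, where scpl48 (−0.73) and SCPL27 (−0.96) lost their calls, and 4 without 4 h B. Of 14 glutathione transferases 3 fell (1 also rose with the block), and of 22 beta-glucosidases 3 fell and 1 rose (4 and 2 with the block). BGLU40 fell from 9.0, 9.22 and 9.25 to 7.36 and 7.04 (−1.96), and BGLU44 by 0.78 (−0.69 and not called without 4 h A, where 1 of the 3 falls remained). BGLU45 rose by 1.07 but was not called once any end of night array, or 4 h A, was dropped. Of 23 cytochromes P450 2 rose and 1 fell, or 4 and 1 with the block. CYP71B23 rose by 2.17 (2.02 and not called without 4 h B, where the count of rises was 0), and CYP71B36 fell by 0.90. Of 12 nitrate and peptide transporters 3 fell, or 5 with the block, GTR1 and AT1G68570 (−1.53) among them.

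Among hormone genes, 4 tied to auxin rose and a cytokinin response gene fell. Of 18 genes for auxin synthesis, conjugation and response 4 rose and 0 fell (median 0.09). WES1 (GH3.5), an enzyme that conjugates auxin to amino acids, read 7.29, 7.1 and 6.51 and then 9.98 and 9.61, 7.08-fold higher (adjusted p = 0.00012). GH3.3 of the same family read 5.95, 6.02 and 5.57 and then 8.13 and 7.71 (2.07 ± 0.19), while GH3.1, GH3.9 and GH3.17 lay between −0.16 and 0.29. IAA29, a repressor of auxin response, rose by 1.82, and the other 6 measured Aux/IAA genes lay between −0.15 and 0.17. HAT2, an auxin-inducible homeodomain factor, rose by 2.41. The 4 YUC genes, whose enzymes make auxin, lay between −0.03 and 0.09. In cytokinin, RR16, a type-A response regulator and so a primary target, read 9.37, 9.17 and 9.43 and then 6.13 and 7.09, 6.55-fold lower (adjusted p = 0.0012), with the 5 other measured regulators between −0.21 and 0.13.

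Of 7 genes of jasmonate synthesis and signalling 2 fell, MYC4 and JMT, which makes methyl jasmonate, and with the block 1 rose as well. The other 5 lay above 0, and the median of the group was 0.485. JMT (−0.99) was not called without end of night A, 4 h A or 4 h B, and leaving out end of night B brought 2 rises and 4 h B 1. PDF1.2, a defensin under jasmonate and ethylene control, differed by 1.60 with a standard error of 0.57 and was not called. EIN3, the master factor of ethylene response, read 9.60, 9.60 and 9.31 and then 10.65 and 10.56, a rise of 1.11 ± 0.14. COR47, a dehydrin induced by cold and abscisic acid, rose by 1.14, with COR15A, COR15B and LTI30 at 0.25, 0.02 and 0.62. GID1B, a gibberellin receptor, rose by 0.56 and was not called without end of night C (0.48), 4 h A (0.47) or 4 h B (0.64). HYH, a bZIP factor of light signalling, fell by 1.55, from 8.96, 9.04 and 9.24 to 8.01 and 7.04. GI, a clock component that peaks late in the day, rose by 0.72 but was not called without end of night C (0.54), 4 h A (0.83) or 4 h B (0.61).

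Among symbol families with at least 6 measured members, 2 of 37 had 50% or more of their members called in 1 direction, ATG (5 of 8 higher, 1 lower) and WRKY (3 of 6 higher). With ZAP1, a WRKY factor under another symbol, the WRKY count was 3 of 7 (42.9%), and ZAP1 differed by −0.10. WRKY factors regulate defence and leaf ageing. WRKY22, which is known in dark-induced senescence, read 5.93, 6.02 and 6.34 and then 8.39 and 8.04, 4.33-fold higher (adjusted p = 3.1e-05). WRKY53, a promoter of leaf senescence, rose by 1.33 (1.19 and not called without 4 h A, where 1 of the 3 rises remained), and WRKY47 by 0.71 (0.65 to 0.83 over the 5 arrays left out, not called without end of night A or B or either 4 h array). The ATG count was 3 without 4 h A and 1 without 4 h B, both with 0 lower.

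Among genes of growth, several enzymes of the cell wall fell, where 7.69% of all genes were lower. Of 15 GH9 endoglucanases, which cut glucan chains in the wall, 4 fell and 0 rose (median −0.10). GH9B8 read 7.59, 7.68 and 7.44 and then 5.65 and 5.87, 3.52-fold lower (adjusted p = 2.7e-05), and GH9C2 fell by 1.5. GH9B7 fell by 0.69 (−0.68 and not called without 4 h B). Of 22 TRICHOME BIREFRINGENCE-LIKE genes, whose proteins acetylate wall polymers, 4 fell (1 without 4 h A and 2 without 4 h B). TBL45 read 10.57, 10.55 and 10.89 and then 9.39 and 9.44 (−1.26 ± 0.21), and the calls of TBL26 (−0.92 without 4 h A) and TBL28 (−0.93 and −0.92) depended on the 4 h arrays. Among 18 expansins and xyloglucan enzymes, which loosen the wall, 3 rose and 4 fell, with 1 fall left without 4 h A or without 4 h B. The expansin-like EXLA1 and EXLA2 rose by 1.49 and 0.83, while EXLB1 fell by 1.73 (−1.78 without 4 h A and −1.68 without 4 h B, not called) and XTH16 by 1.47 (−1.26 and not called without 4 h A).

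Some growth peptides and 1 of the receptor kinases fell, where 7.69% of all genes were lower. Of 10 RALF-like peptides, which signal through FERONIA-type kinases to limit cell expansion, 3 fell and 0 rose. RALFL33 read 10.56, 10.58 and 10.87 and then 9.48 and 9.44 (−1.21 ± 0.20). RALFL24 (−0.94) was not called without 4 h A (−0.88), nor RALFL34 (−0.82) without 4 h B (−0.71). THE1, a receptor kinase that monitors the wall, fell by 0.95, and FER lay at 0.89 with a standard error of 0.46, not called. With the letter block FER was called higher (1.07, adjusted p = 0.0198 in limma). Of 6 CLE peptides 2 fell, CLE41 (−0.89) and CLE44 (−1.07), which hold back xylem formation. Without end of night A or C 1 of them was called, and without 4 h A or 4 h B 0 were (−0.84 and −0.95 for CLE41).

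Histone, replication and tubulin genes were lower in part. Of 13 histone and DNA replication genes 5 fell and 2 rose, with a median of −0.31. The histone H2B genes HTB1 and HTB2 fell by 1.06 and 1.12, HTB2 from 8.89, 8.54 and 8.53 to 7.60 and 7.46, while HTB4 and HTB11 lay at −0.21 and −0.16. POLA3, of the DNA polymerase alpha complex, fell by 1.05. PRL, a subunit of the replicative helicase, fell by 1.04 (−0.99 and not called without 4 h A, where 3 of the 5 falls remained). HIS1-3, a drought-inducible linker histone, rose by 0.51, and HON4 by 0.82, neither called without 4 h B (0.42 and 0.76). Among 16 microtubule proteins 4 fell, and among 10 genes of the cytoskeleton list 4 fell. TUB9, a beta-tubulin, fell by 1.21, from 10.50, 10.32 and 9.55 to 8.84 and 8.99. These calls depended on single arrays, since without 4 h B 0 were called in either group, without 4 h A 1 and 0, and without end of night A or B 2 in each. TUB9 was −1.13 without 4 h A and −1.28 without 4 h B. Of 9 genes of trichome and stomatal patterning TRY, an inhibitor of trichome formation, and GIS, a trichome activator, fell by 1.07 and 1.1, and 1 was called without 4 h A and 0 without 4 h B (−0.95 for TRY and −1.04 for GIS).

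The levels at the other times show what became of these genes, and these arrays give no test here. AKINBETA1, 9.40 on the array 2 h before the end of the night, had reached 11.50 at 2 h of extended night, and was at 12.30 at 6 h and at 12.33 and 12.78 at 48 h. BZIP53 was at 10.43 at 2 h and at 10.86 and 10.69 at 48 h. MYC4 lay at 7.98 at 2 h, at 6.13 at 6 h and at 6.14 and 5.93 at 48 h. PWD and RR16 followed another course. PWD was 9.86 before the end of the night, 8.58 at 2 h and 8.04 at 6 h, and stood at 10.09 and 9.96 at 24 h, above all 3 end of night arrays. RR16 was at 8.14 at 2 h, 6.29 at 6 h and 9.84 and 9.81 at 24 h, also above the end of night arrays. UGT74B1 lay at 8.08 and 7.85 at 24 h and GH9B8 at 5.84 and 5.77, both below every end of night value. ATSPS4F lay at 4.70 and 4.81 at 24 h, lower than at 4 h.

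**Figure D5:**
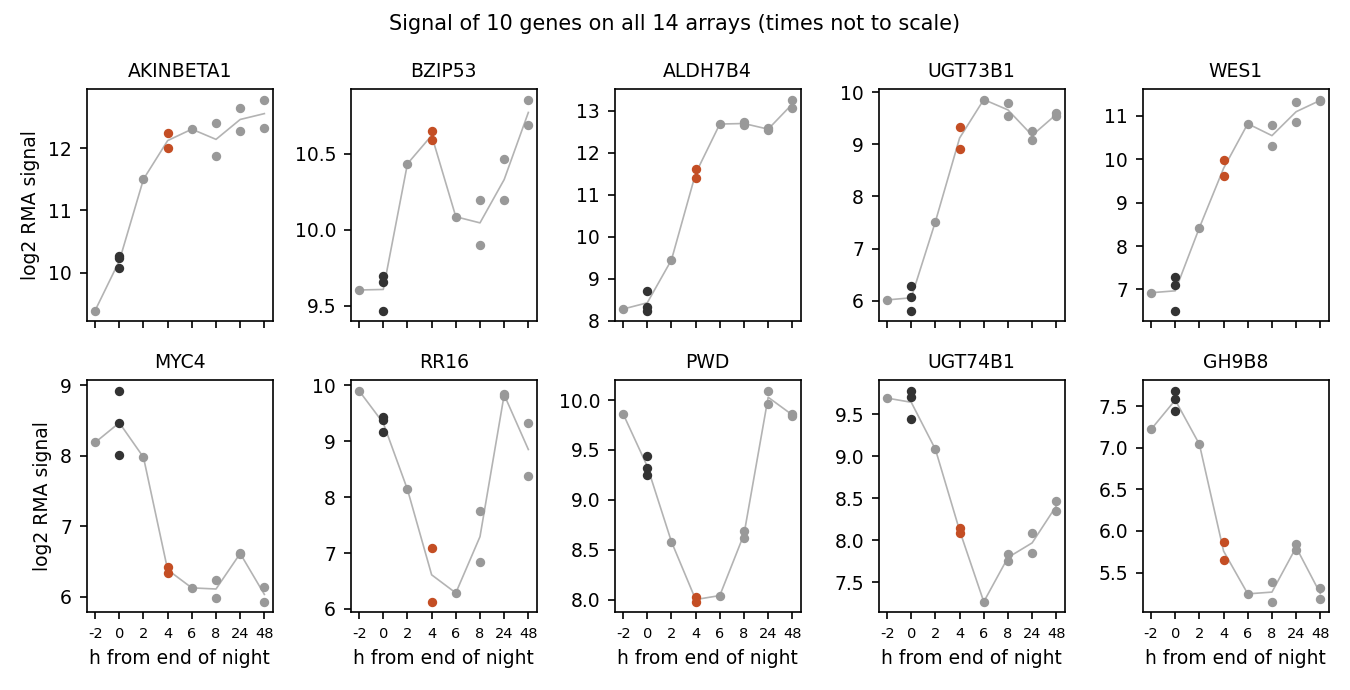
Log2 RMA signal of 10 genes against hours from the night's end (−2 to 48), 1 marker per array for all 14 arrays, black at 0, orange at 4 h and grey elsewhere, with a line through the means and times spaced evenly. AKINBETA1 is high from 2 h onward, while PWD and RR16 dip between 2 h and 8 h and at 24 h lie above their end of night arrays.

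Of the 13355 genes 11820 are given by locus alone, of which 6.63% rose and 7.37% fell, beside 8.01% and 10.2% of the 1535 with a symbol, a difference that was not tested. Of the 15 largest rises of genes 9 were such loci, from AT3G62550 (7.08, 7.13 and 7.14, then 11.14 and 11.74, 4.33 ± 0.24) and AT1G72060 (4.29 ± 0.16) through AT1G25400 (3.98), AT3G10020 (3.72), AT2G32150 (3.69), AT1G02660 (3.68) and AT4G37220 (3.37) to AT5G27920 (3.14) and AT4G39675 (3.11). Of the 15 largest falls 14 were, RR16 being the exception. AT3G15310 read 8.79, 8.40 and 9.32 and then 4.83 and 4.74, 16.6-fold lower, and AT1G26790 read 7.45, 7.51 and 7.67 and then 4.53 and 4.42. AT1G73600, AT5G42760, AT3G28270, AT1G06000 and AT5G55620 differed by −3.39, −3.15, −2.97, −2.68 and −2.60, and the remaining 7 by −2.58 to −2.36. Among genes changed at least 4-fold, the brightest at the end of the night was AT1G29660 (11.86, 11.67 and 12.22, then 9.07 and 9.78). The dimmest was AT4G16680, which read 4.54, 4.59 and 4.54 and then 7.26 and 6.32, and which was not called without 4 h A (1.76).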

How the data were processed

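Total RNA from whole rosettes was hybridised to 14 ATH1 arrays. The authors deposited log2 signals, summarised with RMA per the submitters' processing notes, and these values were used as deposited, without further normalization. They ran from 3.40 to 14.39. The number of arrays limits the precision. Groups came from the sample titles. Members, gene lists and role groups were chosen with earlier results of these data known, so their shares beside all genes are no test. limma 3.58.1 (R 4.3.3) was fitted to all 14 arrays with 8 time points as a factor and no letter term, leaving 6 residual degrees of freedom. The contrast was 4 h minus end of night, two-sided, with Benjamini-Hochberg adjustment over 22746 probe sets and a call at an adjusted p under 0.05. On simulated data 74 of 100 probe sets changed 2-fold and 100 of 100 changed 4-fold were recovered, with 6 false among 180 calls. The simulation had independent noise, no letter effect and few changed probe sets, so its rates do not carry over to these data. A gene took its single-gene probe set of highest mean, and names came from the platform annotation and RefSeq gene table. Named genes were the 15 largest rises and falls whose arrays did not overlap, up to 4 called members per list or family, members of symbol families with 50% or more called, the brightest and dimmest genes changed at least 4-fold, and uncalled members needed to show how a list varied. Members of the role groups beyond these, and FDH, were named after their values were seen. Of 1446 listed genes 238 were measured, 38 of them higher and 45 lower. The labels do not say what the letters A, B and C mark. Deviations from group means correlated at 0.17 to 0.58 over 16 same-letter pairs and at −0.58 to 0.365 over 32 others. In a group of 2 arrays the deviations mirror each other, so these pairs are not independent. The ranges overlap only through such mirrors, as 0.365 for 8 h A with 48 h C repeats 8 h B with 48 h B. The highest other value between different letters was 0.155, for end of night A with 24 h B. Arrays of the same letter thus deviated alike. What the letters mark, and whether they pair the samples by design, was not tested. Alternatives were the letter block, median centring, a second quantile normalization, dropping dim probe sets, trend and robust variance, other sets of arrays and each array left out.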

Additional observations from a re-analysis of the deposited data

How the results depend on the processing

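The count of called probe sets, 1703 higher and 1997 lower, was 2722 and 3238 with the letter block, 935 and 1015 at an adjusted p under 0.01, and 695 and 603 with a 2-fold minimum. Leaving out 1 array at a time gave 875 to 1371 higher and 884 to 1589 lower. Over the lists and families, 58 higher and 68 lower, the counts were 38 and 35 at an adjusted p under 0.01, 29 and 28 with the 2-fold minimum, and 35 to 53 higher and 30 to 56 lower with 1 array left out. Centring gave 1790 and 1809, a second quantile normalization 1699 and 1971, dropping the dimmest probe sets 1749 and 1941, trend and robust variance 1596 and 1833, the 5 arrays alone 1994 and 2183, and dropping 48 h 2037 and 2303. The block ended no call of a named gene. Of 179 named genes, 99 were called under every refit and 80 were not under at least 1, and none reversed. Calls of named genes lost numbered 6 with centring, 5 with the second quantile normalization, 9 with trend and robust variance, 5 with the 5 arrays alone, 5 without 48 h, 27, 23 and 28 without end of night A, B and C, and 60 and 66 without 4 h A and 4 h B. Leaving out 4 h A or 4 h B leaves 1 array in that group, whose spread is assumed to equal that of the other groups. The promoter motif alternative was not run. Few dim probe sets were called, and how far signal over background limits detection was not tested.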

Other observations

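Genes with more than 1 probe set gave a check on single probe sets. Of 141 genes with exactly 2 single-gene probe sets, 30 had at least 1 called at an adjusted p under 0.05 in limma. In 8 of them both were called in the same direction, in 0 in opposite directions, and in 22 only 1 was called.

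A few other annotated genes, chosen after their values were seen, changed at 4 h. The plastid lipocalin CHL fell from 9.97, 9.68 and 9.84 to 8.33 and 7.79 (−1.77 ± 0.20). The defensin-like LCR69 and LCR68 fell by 1.52 and 1.48 on the log2 scale and Cpn60beta4, a plastid chaperonin subunit, by 1.48. BPC1, a GAGA-binding transcription factor, rose from 6.97, 6.94 and 7.11 to 8.53 and 8.28 (1.4 ± 0.12), and OBE1, a PHD-finger protein of meristems, rose by 1.32.

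Control probe sets for housekeeping RNAs were not part of the test. The 6 probe sets of actin differed by −0.47 to 0.12 and the 5 of GAPDH by −0.44 to −0.04, and the groups overlapped at 5 of the 6 and at all 5. The 5 ubiquitin probe sets differed by 0.17 to 0.38, and their groups did not overlap, as at 45.1% of the probe sets tested. They read parts of related RNAs and are not separate observations. The 25S rRNA probe set read 12.54, 11.99 and 13.20 at the end of the night and 12.96 and 11.23 at 4 h, so that the groups overlapped.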
